A study of Mus musculus with 6 samples.

Results

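The nuclear genes for the subunits of the 5 oxidative phosphorylation complexes were examined in mouse limb cells sorted for a nuclear GFP reporter of Pax7, a transcription factor of skeletal muscle progenitors. Members were taken by symbol: names that begin with Ndufa, Ndufb, Ndufc, Ndufs or Ndufv for complex I, Uqcr and Cyc1 for complex III, Cox4i, Cox5, Cox6, Cox7 and Cox8 for complex IV, Atp5 for complex V, and Sdha to Sdhd for complex II. Assembly factors named Ndufaf and probe sets with several symbols were left out, and each gene was read from its probe set with the highest mean. This gave 83 of the 18182 genes measured, 36 in complex I, 4 in complex II, 9 in complex III, 17 in complex IV and 17 in complex V. The rule keeps Ndufa4 and its paralogue Ndufa4l2 under complex I by name, although the Ndufa4 protein is known as a complex IV subunit, and it takes in Cox7a2l, a factor that joins complexes III and IV into supercomplexes. Ndufa11 and Ndufs6 are known subunits that the annotation lists here only on probe sets with several symbols, so they are not members.

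GFP-positive cells had been sorted after trypsin digestion of the limbs of Tg:Pax7-nGFP embryos on a C57BL/6:DBA2 background, at embryonic day E12.5 (3 arrays) and E17.5 (3 arrays). All 6 arrays carry the transgene, and the labels call the samples of each age biological replicates A, B and C. The sort follows the reporter protein, which can persist in a cell after it has stopped making Pax7. The only comparison in the design is fetal (E17.5) against embryonic (E12.5) cells.

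Oxidative phosphorylation is the last stage of respiration. Complexes I (NADH dehydrogenase) and II (succinate dehydrogenase) pass electrons through ubiquinone to complex III (cytochrome bc1), cytochrome c carries them to complex IV (cytochrome c oxidase), and complex V (ATP synthase) uses the resulting proton gradient to make ATP. Most subunits are made in every tissue, but complex IV has paired isoforms. Cox6a2, Cox7a1 and Cox8b encode the heart and skeletal muscle forms of subunits 6A, 7A and 8, while Cox6a1, Cox7a2 and Cox8a encode the general forms, and the muscle forms are known to replace the general ones as muscle fibres mature. Cox7a1 and Cox8b are also known from brown fat.

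The sequences upstream of the isoform pairs, apart from Cox6a2, and of the 1 member that passed the test, are given with their motif matches. RefSeq windows of build GRCm38.p6 matched 67 of the 83 members, with 72 windows among them, and the 250 bases before each start were searched on both strands for the E-box CANNTG, its myogenic form CAGCTG (which is also counted as an E-box), the core of the estrogen-related receptor site AAGGTCA, the YY1 core AAGATGGC, the NRF1 core GCATGCGC, the GC box GGGCGG and the ETS core CCGGAAG. Capitals mark every match, and the order is muscle form then general form for subunits 7A and 8, followed by the general form of subunit 6A and by Sdhd. The windows lie at chr7:30183921-30184170 on the + strand, chr9:79759854-79760103 on the - strand, chr7:140900447-140900696 on the - strand, chr19:7217617-7217866 on the - strand, chr5:115348959-115349208 on the - strand and chr9:50603850-50604099 on the - strand. A window for Cox6a2 is not shown.
Cox7a1: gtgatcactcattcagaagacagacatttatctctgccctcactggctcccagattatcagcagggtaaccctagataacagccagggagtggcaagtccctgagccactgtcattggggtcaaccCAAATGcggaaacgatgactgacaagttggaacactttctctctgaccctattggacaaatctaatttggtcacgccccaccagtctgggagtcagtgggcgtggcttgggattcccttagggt
Cox7a2: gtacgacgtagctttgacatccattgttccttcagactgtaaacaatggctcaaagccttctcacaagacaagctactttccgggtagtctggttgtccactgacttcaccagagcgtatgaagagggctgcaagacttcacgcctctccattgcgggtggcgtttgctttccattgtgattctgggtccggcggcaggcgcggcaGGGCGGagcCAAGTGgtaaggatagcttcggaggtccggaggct
Cox8b: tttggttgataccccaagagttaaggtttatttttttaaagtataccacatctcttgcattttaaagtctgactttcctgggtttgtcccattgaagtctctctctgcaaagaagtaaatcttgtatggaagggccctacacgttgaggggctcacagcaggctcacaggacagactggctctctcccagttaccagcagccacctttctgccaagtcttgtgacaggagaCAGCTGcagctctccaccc
Cox8a: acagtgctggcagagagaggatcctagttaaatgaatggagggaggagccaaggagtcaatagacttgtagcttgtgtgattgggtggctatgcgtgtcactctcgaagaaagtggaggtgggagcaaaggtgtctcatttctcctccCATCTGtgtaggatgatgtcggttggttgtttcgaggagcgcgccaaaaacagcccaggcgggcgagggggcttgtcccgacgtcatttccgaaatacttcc
Cox6a1: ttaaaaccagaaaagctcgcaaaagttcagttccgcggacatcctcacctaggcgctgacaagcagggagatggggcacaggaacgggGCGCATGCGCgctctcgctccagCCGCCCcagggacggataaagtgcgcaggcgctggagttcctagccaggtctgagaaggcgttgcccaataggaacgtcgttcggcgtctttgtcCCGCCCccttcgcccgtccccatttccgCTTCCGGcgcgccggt
Sdhd: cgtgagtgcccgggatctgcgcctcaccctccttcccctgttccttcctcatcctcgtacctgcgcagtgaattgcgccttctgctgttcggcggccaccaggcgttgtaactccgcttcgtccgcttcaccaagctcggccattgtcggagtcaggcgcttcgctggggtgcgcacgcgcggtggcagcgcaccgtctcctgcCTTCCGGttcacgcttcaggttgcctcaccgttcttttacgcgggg

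Each of the 4 windows of the subunit 7A and 8 isoforms held 1 E-box. The one of Cox8b was the myogenic form, from 19 to 14 bases before the start, and the ones of Cox7a1, Cox7a2 and Cox8a had other central bases. The window of Cox6a1 held an overlapping pair of matches to the NRF1 core, beside GC boxes and an ETS core, and that of Sdhd held 1 ETS core. Over all members' windows the NRF1 core was present in 9.72% (against 2.26% of 32851 mouse windows), in Atp5g2, Atp5k, Atp5l, Cox6a1, Ndufa6, Ndufa8 and Sdhb. The ETS core was present in 16.7% (6.91%), the GC box in 36.1% (32.7%), the estrogen-related receptor core in 6.94% (4.08%), the YY1 core in 1.39% (1.56%), the E-box in 62.5% (66.2%) and its myogenic form in 8.33% (13%). The members' windows were also richer in G and C, with a median of 57% against 52.4% over all windows. These are descriptions of letters in windows, not of binding.

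Values are log2 signals per probe set, in which a difference of 1 is a doubling, and "called" means a Benjamini-Hochberg adjusted p under 0.05 in limma over all 18182 genes. The array medians lay between 3.38 and 3.47, and 42.8% of genes had a mean under 4, the dense low range in which GCRMA places probe sets without specific signal. Pax7 itself stood at 11.46 ± 0.28 (SD, n = 3) at E12.5 and 12.37 ± 0.15 at E17.5. E17.5 replicates A and B were close to copies of each other: the SD of their difference over the members with a mean of at least 6 was 0.099, where the 5 remaining pairs of one age ranged from 0.156 to 0.437. Counts of called members are therefore also given with these arrays counted as 1 sample through their mean, and all intervals of the 6-array fit may be too narrow. Markers of other cells moved with age in the same arrays, and their part in the members' values was not tested. Of 8 measured erythroid markers, for example, the embryonic globin genes Hbb-y, Hba-x and Hbb-bh1 were called lower (1 of 8 with A and B averaged). Over all genes 8.73% were called lower (4.54% averaged). Hbb-y, which carries most of the list's signal, was at 14.34, 14.89 and 13.02 in E12.5 A, B and C and at 4.46, 3.23 and 3.32 in E17.5 A, B and C. The other 5 were not called, and Hba-a1, Klf1 and Gata1 lay in the low range on every array.

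Most subunit genes differed little between the ages. Of the 83 members 1 was called higher at E17.5 (Sdhd) and 0 lower, where 8.21% of all genes were called higher and 8.73% lower. Counting E17.5 A and B as 1 sample, 0 members were called by limma in either direction, where 5.62% and 4.54% of all genes were, and 7 members had an unadjusted p under 0.05, where 22.5% of all genes did. The count depends on the genes tested: among the 10405 with a mean of at least 4, which hold 75 members, 4 members were called higher (Ndufa6, Ndufc2, Sdhd and Cox7a2l, where 16.3% of genes were) and 4 lower (Ndufa12, Ndufb8, Cox7c and Atp5j2, where 17.8% were). At an unadjusted limma p under 0.05 there were 15 members (18.1%), 6 higher and 9 lower, against 28.4% of all genes. The 3 arrays of each age were fully separated from the others in 9 members higher at E17.5 (10.8%, against 14.2% of all genes) and in 7 lower (8.43%, against 17.2%). In these bulk samples, fewer cells of a type and less RNA per cell cannot be told apart.

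A missed call does not show that levels were equal, so the intervals matter. The signal had a mean of at least 6 in 73 members, and these 73 are described here. In 68 of them (93.2%) the whole 95% interval of the difference lay within a doubling or halving, and in 40 (54.8%) it lay within 0.5 on the log2 scale. Over all 8758 genes that reach this minimum of 6 the shares were 59.2% and 16%. The median size of the difference, regardless of sign, was 0.15 in the members and 0.39 in those 8758 genes. With E17.5 A and B averaged the first count was again 68 (93.2%), against 50.9% of all such genes. The means of those 8758 genes ran from 6 to 15.3 and those of the 73 members from 7.28 to 14.24. The sets were not matched on signal, so how far signal level accounts for the members' narrower intervals and smaller differences was not tested. The intervals that reached beyond a doubling or halving were those of Ndufs4, Uqcrq, Cox7c, Atp5e and Atp5mpl, all on the side of lower signal at E17.5.

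**Figure D1:**
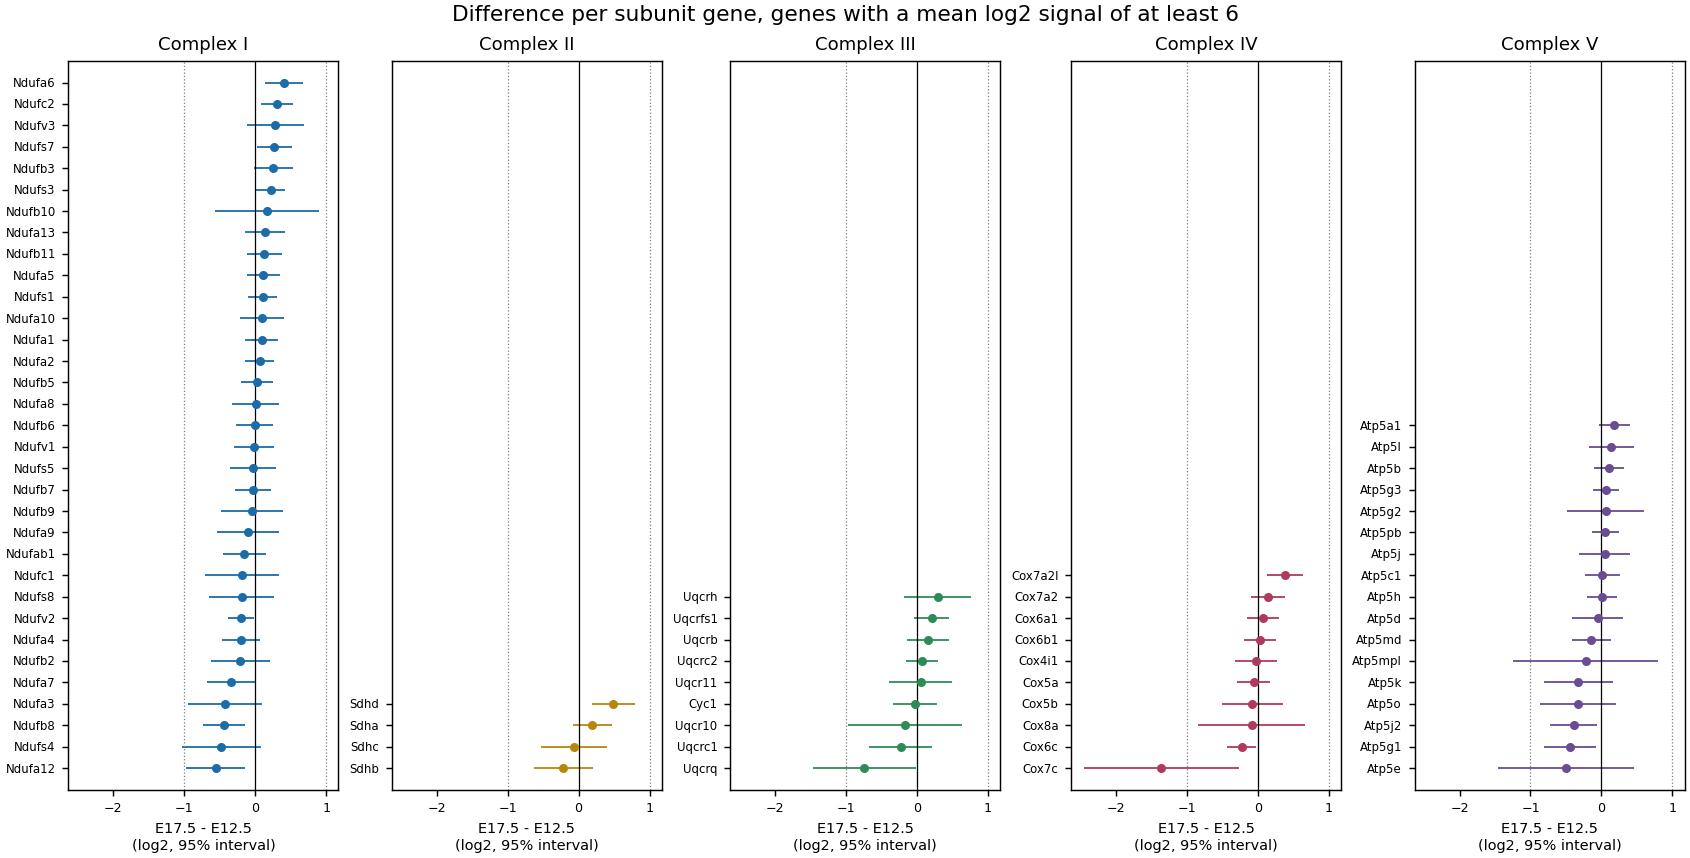
Difference between E17.5 and E12.5 (log2, points) with its 95% interval from limma (bars) for the 73 subunit genes with a mean log2 signal of at least 6, in a panel per complex. Dotted lines mark a doubling and a halving. In 68 genes the interval stays between the dotted lines, and the difference of Cox7c (-1.36) is the farthest from 0.

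By complex, the median difference was -0.010 in complex I, 0.065 in complex II, 0.053 in complex III, 0.003 in complex IV and 0.007 in complex V, against 0.003 over all genes and -0.080 over the 8758 brighter ones. In no complex did the members lean to one side: positive differences numbered 17 of 36 in complex I, 2 of 4 in complex II, 5 of 9 in complex III, 9 of 17 in complex IV and 9 of 17 in complex V.

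Complex I takes electrons from NADH, and 33 of its 36 members had a mean of at least 6, between 8.37 and 13.44. None of the 36 was called, and 8 (22.2%) had an unadjusted limma p under 0.05, where 28.4% of all genes did. The differences of the 33 ran from -0.56 to 0.41. In the N module, which oxidises NADH, the flavoprotein gene Ndufv1 stood at 12.65 ± 0.08 (SD, n = 3 here and below) at E12.5 and 12.64 ± 0.19 at E17.5 (difference -0.01, 95% interval -0.29 to 0.27). Ndufs1, the iron-sulfur subunit of that module, differed by 0.10 (-0.10 to 0.30). Ndufa12, an accessory subunit of the same module, had the lowest difference of the complex.

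Ndufa12 was at 12.66, 12.56 and 12.65 in E12.5 A, B and C and at 11.89, 11.84 and 12.47 in E17.5 A, B and C (difference -0.56, SE 0.17, limma adjusted p = 0.0795; 0.236 with A and B averaged). The ages did not overlap, but E17.5 C lay near the E12.5 arrays. Ndufa6, an accessory subunit, was the nearest of the complex to the threshold, at 10.22, 10.45 and 10.54 and then 10.85, 10.76 and 10.83 (difference 0.41, SE 0.11, limma adjusted p = 0.0517; 0.159 averaged). All 3 fetal arrays lay above all embryonic ones and close together.

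In the Q module, which reduces ubiquinone, Ndufs3 and Ndufs7 differed by 0.22 (0.01 to 0.42) and 0.27 (0.03 to 0.51) with ages that did not overlap, and neither was called (limma adjusted p = 0.153 and 0.137). The membrane arm held the B and C series. Of these, Ndufb8 was at 11.77 ± 0.14 and 11.33 ± 0.17 (-0.44, SE 0.13, limma adjusted p = 0.0595) and Ndufc2 at 13.29 ± 0.06 and 13.60 ± 0.12 (0.31, SE 0.09, limma adjusted p = 0.0737). Ndufb6 and Ndufb5 differed by -0.01 and 0.02. Subunits of 1 arm therefore differed in sign, and none of these differences passed the test.

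The probe sets of Ndufb4 and Ndufb1 gave no usable comparison. Ndufb4 lay between 2.05 and 2.07 on all arrays and Ndufb1 between 4.19 and 4.33.

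Complex II oxidises succinate, and it held the 1 call among the members. Sdhd, a membrane anchor subunit, was at 10.37, 10.69 and 10.66 in E12.5 A, B and C and at 11.11, 11.16 and 10.91 in E17.5 A, B and C. All fetal arrays lay above all embryonic ones. The rise was 0.49 (SE 0.13, 95% interval 0.18 to 0.79, limma adjusted p = 0.0442), a fold of 1.13 to 1.73 by the interval.

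That call was not stable: the limma adjusted p was 0.160 with both near copies averaged, and without 1 array it ran from 0.0363 (without E17.5 C) to 0.172 (without E17.5 B), passing only in the former. A second Sdhd probe set was at 9.63, 9.68 and 9.77 and then 9.82, 9.86 and 9.80, a difference of 0.13 that was not called over all probe sets (limma adjusted p = 0.639). The other anchor subunit, Sdhc, differed by -0.06 (-0.53 to 0.41). The catalytic subunits Sdha (flavoprotein) and Sdhb (iron-sulfur) differed by 0.19 (-0.09 to 0.47) and -0.22 (-0.64 to 0.20).

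Complex III moves electrons from ubiquinol to cytochrome c, and none of its 9 members was called by limma. At an unadjusted limma p under 0.05 there was 1 (11.1%), against 28.4% of all genes. Of the electron carriers, cytochrome c1 (Cyc1) differed by -0.03 (-0.33 to 0.28) and the Rieske iron-sulfur protein (Uqcrfs1) by 0.21 (-0.04 to 0.45), the latter with ages that did not overlap. The core proteins Uqcrc1 and Uqcrc2 differed by -0.23 (-0.68 to 0.21) and 0.07 (-0.16 to 0.29), and the small subunit Uqcrb by 0.15 (-0.14 to 0.44).

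Uqcrq, a small subunit of complex III, was at 10.89, 10.87 and 11.13 in E12.5 A, B and C and at 9.95, 9.76 and 10.95 in E17.5 A, B and C (difference -0.74, SE 0.30, limma adjusted p = 0.166). E17.5 A and B lay below every embryonic array, and E17.5 C lay among them.

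Complex V makes ATP, and all 17 members had a mean of at least 6, between 8.87 and 14.24. None was called, and 2 (11.8%) had an unadjusted limma p under 0.05, where 28.4% of all genes did. In the catalytic F1 head, Atp5a1 (alpha) differed by 0.18 (-0.04 to 0.40), Atp5b (beta) by 0.11 (-0.11 to 0.32), Atp5c1 (gamma) by 0.01 (-0.24 to 0.26) and Atp5d (delta) by -0.05 (-0.41 to 0.31). The peripheral stalk genes Atp5pb, Atp5h and Atp5j differed by 0.06, 0.01 and 0.05. The remaining stalk gene, Atp5o, was at 12.45, 12.57 and 12.83 and then 12.03, 12.04 and 12.78 (-0.33, -0.87 to 0.20), with E17.5 C among the embryonic arrays.

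The c ring, which turns with proton flow, is encoded by 3 genes for the same mature protein. Atp5g1 was at 10.49, 10.72 and 10.59 at E12.5 and at 9.97, 10.04 and 10.46 at E17.5 (-0.44, SE 0.15, limma adjusted p = 0.108), so the ages did not overlap but E17.5 C came close to the embryonic arrays. Atp5g2 and Atp5g3 differed by 0.06 (-0.48 to 0.60) and 0.06 (-0.13 to 0.25). The probe sets of Atp5g2 disagreed: a dimmer one fell from 6.22, 6.20 and 6.19 to 5.11, 5.15 and 5.11 (-1.08, SE 0.17, limma adjusted p = 0.0137 over all probe sets), and another lay in the low range. The dimmer one was the 1 called of the 87 other probe sets of the members. The share called over all probe sets in that fit is not given here. Of those 87, 60 had a mean of at least 6, and their differences ran from -1.26 to 1.59, with 54 under 0.5 in size. None of the 60 was called. No member with a mean of at least 6 rose by more than 0.49 on the probe set used, so the gene with the 1.59 also had probe sets that disagreed. Atp5j2, a small membrane subunit, was at 13.30, 13.46 and 13.42 and then 12.93, 12.80 and 13.27 (-0.39, SE 0.14, limma adjusted p = 0.107). Atp5e, the epsilon subunit of the F1 head, was at 11.83, 11.49 and 11.89 and then 10.76, 10.72 and 12.23. E17.5 A and B were the lowest arrays and E17.5 C the highest (-0.50, SE 0.40, limma adjusted p = 0.548).

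In complex IV the main subunits without a muscle form differed little between the ages, apart from Cox7c. Cox5a, Cox5b, Cox6b1 and Cox4i1 differed by -0.06 (-0.29 to 0.17), -0.08 (-0.51 to 0.35), 0.02 (-0.20 to 0.25) and -0.03 (-0.32 to 0.26). Cox6c was at 13.56 ± 0.10 and 13.32 ± 0.03 (-0.23, SE 0.09, limma adjusted p = 0.134), with ages that did not overlap.

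Cox7c, a small nuclear-encoded subunit, was at 8.65, 8.75 and 8.68 in E12.5 A, B and C and at 7.94, 7.86 and 6.19 in E17.5 A, B and C. Every fetal array was below every embryonic one, and E17.5 C was far below the other two. The difference was -1.36 (SE 0.46, 95% interval -2.46 to -0.27, limma adjusted p = 0.0991; 0.0965 with A and B averaged; 0.0116 to 0.215 without 1 array). A dimmer second probe set of the gene gave 6.92, 6.93 and 6.49 and then 5.80, 6.04 and 4.71 (-1.26, SE 0.38, limma adjusted p = 0.112 over all probe sets).

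Cox7a2l, the supercomplex factor, was at 12.88, 12.68 and 12.55 in E12.5 A, B and C and at 13.13, 13.01 and 13.11 in E17.5 A, B and C (0.38, SE 0.11, limma adjusted p = 0.0587; 0.156 averaged). All fetal arrays were above all embryonic ones. Its 2 other probe sets differed by 0.39 and 0.50 and were not called over all probe sets either (limma adjusted p = 0.117 and 0.0618).

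**Figure D2:**
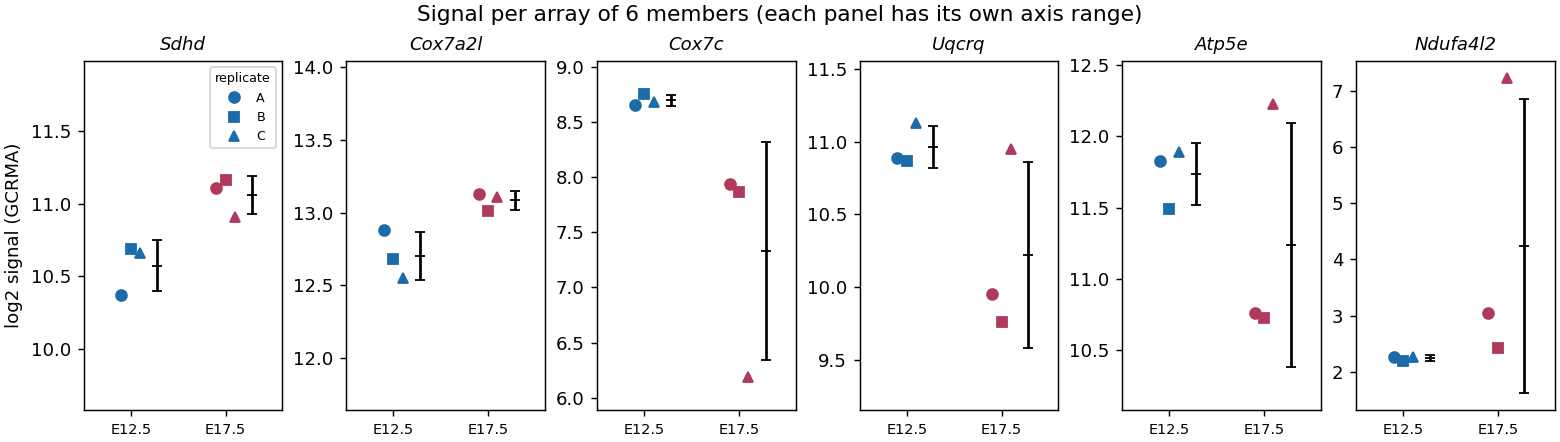
Log2 signal of 6 members on each array, E12.5 in blue and E17.5 in red, with a symbol per replicate letter and the mean ± SD of 3 arrays beside the points. Axis ranges differ between panels and none starts at 0. E17.5 C stands apart from E17.5 A and B in Cox7c, Uqcrq, Atp5e and Ndufa4l2, and of the 6 only Sdhd was called.

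The muscle isoforms of complex IV had no signal above the low range at either age. Cox6a2 was at 2.23, 2.18 and 2.23 in E12.5 A, B and C and at 2.21, 2.22 and 2.23 in E17.5 A, B and C. Cox7a1 was at 2.63, 2.49 and 2.63 and then 2.62, 2.62 and 2.65. Cox8b was at 2.44, 2.34 and 2.43 and then 2.41, 2.40 and 2.71. All 18 values lie under 4, and the embryonic and fetal ranges overlap in each gene.

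Their differences were 0.01 for Cox6a2 (SE 0.02), 0.05 for Cox7a1 (SE 0.05) and 0.10 for Cox8b (SE 0.08), with limma adjusted p = 0.920, 0.650 and 0.558. In the low range GCRMA compresses values, so these narrow errors do not bound the change of the transcripts; the muscle forms were not detectable here. Cox6a2 had a second probe set, between 1.89 and 1.92 on all arrays, and Cox7a1 and Cox8b had 1 probe set each.

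The general isoforms were measured well above that range. Cox6a1 was at 13.98, 14.01 and 14.20 at E12.5 and at 14.13, 14.06 and 14.21 at E17.5 (0.07, 95% interval -0.16 to 0.30). Cox7a2 was at 13.09, 13.24 and 13.40 and then 13.42, 13.36 and 13.38 (0.14, -0.10 to 0.39). Cox8a was at 9.07, 8.71 and 8.94 and then 8.56, 8.34 and 9.55 (-0.09, -0.85 to 0.67), with E17.5 C the highest array. The ages overlapped in all 3 genes and none was called (limma adjusted p = 0.792, 0.474 and 0.931).

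The change of each muscle isoform relative to its general partner was taken within each array. The log2 difference between partners moved from E12.5 to E17.5 by -0.063 for Cox6a2 minus Cox6a1, by -0.097 for Cox7a1 minus Cox7a2 and by 0.19 for Cox8b minus Cox8a. The exact two-sided permutation test over arrays gave p = 0.4, 0.6 and 0.5 (0.6 for each after adjustment over the 3 pairs), where 3 arrays against 3 cannot go below 0.1. With the muscle forms in the low range these changes follow the general forms and low-range noise, so they neither show nor bound a switch of isoform.

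**Figure D3:**
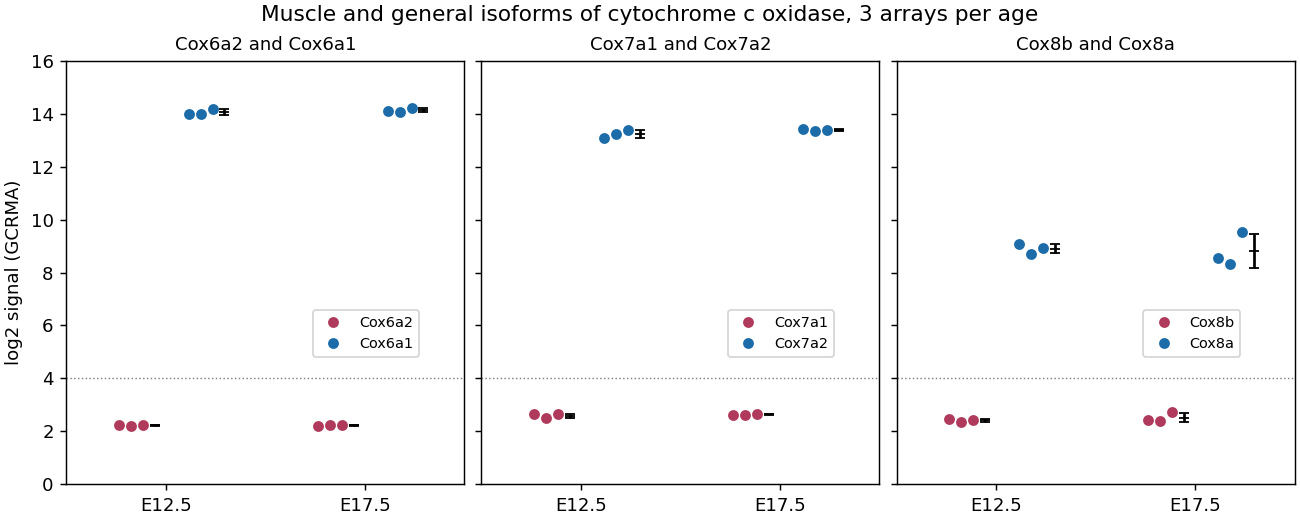
Log2 signal of the muscle isoforms (red) and the general isoforms (blue) of 3 cytochrome c oxidase subunits on each array (points, in the order A, B, C), with mean ± SD of 3 arrays. The dotted line marks 4, the top of the low range. The muscle isoforms lie between 2.18 and 2.71 at both ages, and the general isoforms lie above 8.

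Markers of differentiating muscle moved in both directions on the same arrays. Of 24 such markers 7 were called higher and 3 lower (7 and 1 with A and B averaged). For these and for the fat markers below, the shares over all genes were 8.21% higher and 8.73% lower (5.62% and 4.54% averaged). The log2 of the muscle markers' summed signal went from 14.25 to 14.88 at E12.5 to 15.32 to 15.34 at E17.5. The 7 were Myog, Mymk, Ckm, Actc1, Myh8, Tnnt3 and Tnni2, and the 3 were Myh7, Tnnc1 and Casq1. The troponin gene Tnni2 rose from 5.49 ± 0.25 to 8.61 ± 0.25, while the myosin gene Myh7 fell by 2.33. Of 7 measured fat markers 2 were called higher (Fabp4 by 4.26 and Lpl by 0.99, the latter not with A and B averaged), and Ucp1, Cidea and Adipoq lay between 1.96 and 2.29 on all arrays. Cox6a2, Cox7a1 and Cox8b lay in the low range on the same arrays.

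Of the other isoforms with a restricted tissue range, 3 lay in the low range and Cox6b2 lay above it. Cox4i2, the form of subunit 4 known from lung and from low oxygen, lay between 2.16 and 2.22, and the testis forms Cox7b2 and Cox8c between 2.33 and 2.40 and between 1.48 and 1.49. Cox6b2, also a testis form, stood at 5.33 ± 0.42 and 5.09 ± 0.17 (-0.24, -0.92 to 0.44).

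Ndufa4l2, a gene induced by low oxygen, was the only member with a signal in a single array. It was at 2.27, 2.19 and 2.27 in E12.5 A, B and C, at 3.04 and 2.43 in E17.5 A and B, and at 7.23 in E17.5 C (1.99, SE 1.17, limma adjusted p = 0.358). The ages did not overlap, but only E17.5 C stood above the low range. Its paralogue Ndufa4 was at 11.52 ± 0.04 and 11.32 ± 0.18 (-0.21, -0.47 to 0.06).

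The subunit genes also varied within the fetal age. Among the 73 members with a mean of at least 6, E17.5 C was above both E17.5 A and B in 57 (78.1%, against 52.3% of all genes with such a mean), by a median of 0.25 over their mean. It was more than 0.5 above that mean in 14 members and more than 0.5 below it in 2, Cox7c and Ndufb10. Together these were 21.9% of the 73, against 25.1% of all 8758 genes with such a mean (1332 above and 869 below). Gaps of this size were therefore not more common in the members. The 14 included Atp5e (1.49), Atp5mpl (1.15), Cox8a (1.10), Uqcrq (1.09) and Ndufa3 (0.78). E17.5 A and B differed from each other by at most 0.37 in any of the 73.

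The comparison with E12.5 depended on these arrays. Both E17.5 A and B lay below every embryonic array in 23 of the 73 members and above every one in 12, whereas E17.5 C lay below every embryonic array in 9 and above every one in 36. The same counts over all genes are not given here, so these do not show a trait of the members apart from the arrays as a whole. Without E17.5 C, 12 members were called lower and 1 higher, where 9.61% and 8.54% of all genes were. The 12 were Ndufa12, Ndufs4, Ndufa3, Ndufb8, Ndufb2, Sdhb, Uqcrq, Cox7c, Atp5e, Atp5g1, Atp5j2 and Atp5o, and in 11 of them E17.5 C was above A and B. Their selection partly fixes that position, since they were called lower only once E17.5 C was left out. The fit without E17.5 C sets 3 embryonic arrays against a pair of near copies, so its p-values may be too small. Markers of other cells also set E17.5 C apart: the log2 of the summed signal was 9.80, 9.98 and 8.26 in E17.5 A, B and C for cartilage and 15.03, 15.04 and 14.67 for fibroblasts and tendon, and their part in the members' values was not tested.

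**Figure D4:**
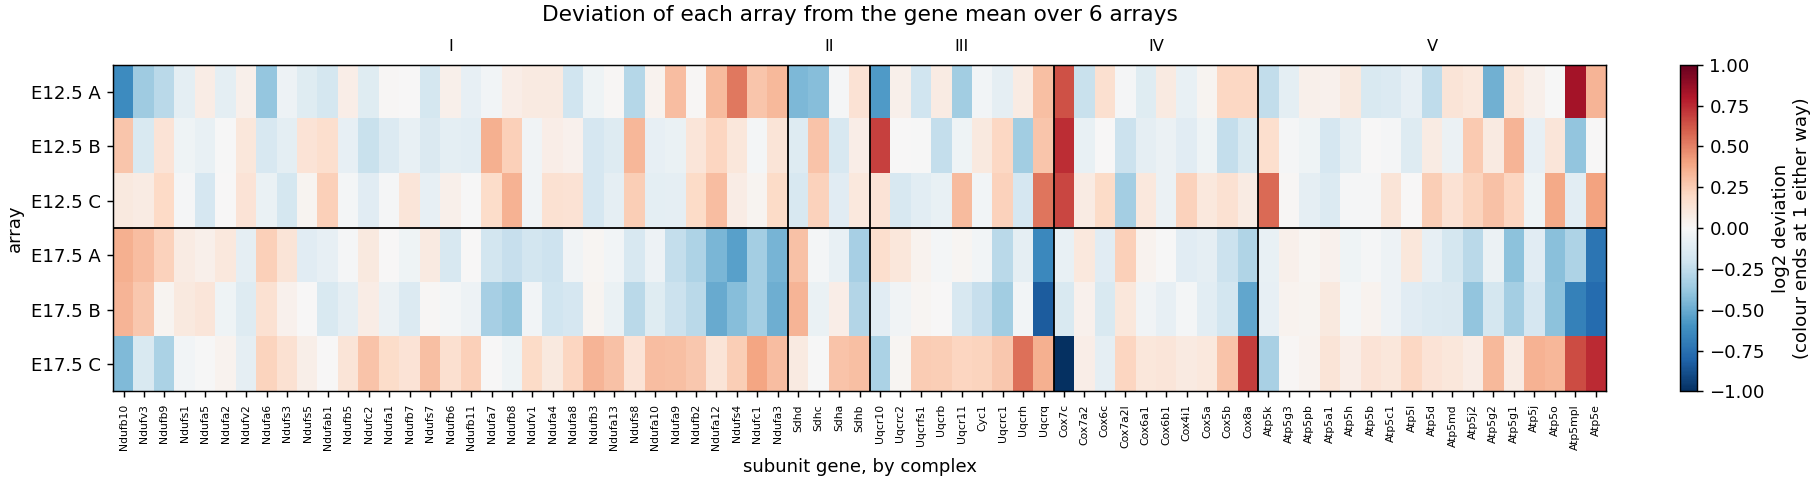
Deviation of each array (rows) from a gene's mean over 6 arrays (log2, red higher and blue lower, colour ending at 1 either way) for the 73 subunit genes with a mean of at least 6 (columns, by complex, and within each by E17.5 C minus the mean of E17.5 A and B). E17.5 A and B share the same pattern, and E17.5 C is above both in 57 of the 73 genes.

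Genes that serve the complexes, their assembly and their fuel were listed separately, and their calls stand beside the 8.21% of all genes called higher and 8.73% called lower (5.62% and 4.54% with A and B averaged). Cytochrome c itself (Cycs) differed by -0.32 (limma adjusted p = 0.0824). Of 12 measured genes for cytochrome c and nucleotide exchange 0 were called by limma in either fit. An unadjusted limma p under 0.05 was found in 1 (0 with A and B averaged), against 28.4% of all genes (22.5% averaged). The adenine nucleotide carrier gene Slc25a4 was at 14.01 ± 0.15 and 13.93 ± 0.03. The muscle creatine kinase of mitochondria, Ckmt2, lay between 2.42 and 2.75.

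Of 15 complex I assembly factors 3 fell and 0 rose (1 and 0 with A and B averaged), with a median of -0.35. The falls were those of Nubpl (-0.74), Ndufaf2 (-0.59) and Ndufaf1 (-0.53). Of 33 assembly factors of the other complexes 4 fell and 1 rose (1 and 0 averaged), among them the copper chaperone genes Cox19 (-1.65) and Cox17 (0.54), which went opposite ways.

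Among 20 regulators of mitochondrial biogenesis 4 rose and 1 fell (3 and 1 averaged). Esrrg, an estrogen-related receptor, rose from 3.38 ± 0.09 to 6.04 ± 0.11 (2.66, SE 0.19, limma adjusted p = 0.000278), from within the low range. Ppara rose by 1.44, and Twnk, the helicase of mitochondrial DNA, fell by 1.23. The coactivator Ppargc1a was at 8.13, 6.98 and 7.22 and then 6.82, 6.79 and 7.50, with overlapping ages (-0.41, limma adjusted p = 0.600). Of 20 genes of the tricarboxylic acid cycle and its entry 3 rose and 1 fell (1 and 1 averaged), with Pdk4, a kinase that shuts off pyruvate dehydrogenase, rising by 4.13 and Pdk3 falling by 1.49. No test compared these lists with the subunits.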

How the data were processed

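Single-colour Affymetrix arrays were made from 100 ng of total RNA per sample by a 2-cycle amplification from the 3' end, per the labels' protocols. The authors deposited log2 signals per probe set made with GCRMA (the sources used here do not give its version), per the submitters' processing notes. GCRMA normalizes between arrays, so a change common to all transcripts of an array is not seen.

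Of 44994 probe sets 34909 had 1 gene symbol in the platform annotation. The 83 members had 170 probe sets, and 10 further probe sets naming such genes beside others were left out. The members' platform symbols were the same as the RefSeq symbols (GRCm38.p6) in every case.

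E17.5 was compared with E12.5 on all 18182 genes without a filter, in R 4.3.3 and limma 3.58.1, using lmFit followed by eBayes with its trend option and Benjamini-Hochberg adjusted p-values. Intervals are the fit's own at 95%. The partner differences were tested with exact permutations. Precision is limited by the number of arrays.

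The members and lists were chosen with earlier results of these data known. Named were the paired isoforms, called members, and the member with the highest signal of each complex (Ndufc2, Sdhb tied with Sdha, Uqcrb, Cox6a1 and Atp5g3); other members were named after their values were seen. Alternatives covered probe set choice, filters and a floor on low signal, scaling, variance priors, array weights, the replicate letter as a block, averaging E17.5 A and B, a threshold of 0.01, the member rule, and leaving out each array. Motifs were searched with Python 3.11.15.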

Additional observations from a re-analysis of the deposited data

How the results depend on the processing

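The count of members called higher, 1 in the 6-array fit, was 0 when probe sets of a gene were averaged, without _x_at, _s_at and _a_at probe sets, with the floor at 4, with robust eBayes, with the 0.01 threshold and with E17.5 A and B as 1 sample. It was 4 among genes with a mean of at least 4 or 6, 2 without the intensity trend and 11 with array weights. The count called lower, 0 in the 6-array fit, was 4 with either filter, 1 with the floor, with arrays centred on bright genes or without the trend, and 31 with array weights, under which 17.6% of all genes were called higher and 28.7% lower. The weights gave E17.5 C 0.14 against 4.98 and 3.24 for E17.5 A and B. Leaving out 1 array gave 0 to 1 higher and 0 to 12 lower. The members called also changed. Sdhd was called with both filters, with array weights and without E17.5 C. Ndufa6 was called with both filters, with array weights, by quantile normalization and without the trend. With the replicate block 0 members were called higher and Sdhd had an adjusted p of 0.103. Deviations of same-letter arrays from the mean of their age correlated at -0.38, 0.25 and -0.070. With 3 arrays per age and E17.5 A and B near copies, these values cannot decide whether the letters pair the arrays.

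The median of complex II was -0.067 with the mean of probe sets and -0.065 with array weights. That of complex IV was -0.060 and -0.043 with the filters at 4 and 6, which remove its low isoforms, and that of complex V was -0.13 with the mean of probe sets and -0.29 with array weights. Over single arrays left out, the medians ran from -0.038 to 0.027 in complex I, 0.011 to 0.11 in complex II, -0.048 to 0.10 in complex III, -0.017 to 0.013 in complex IV and -0.12 to 0.037 in complex V.

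No alternative called Cox6a2, Cox7a1 or Cox8b; under the filters they are not tested. Near 0 their signs turned with array weights (-0.014, -0.0033 and -0.016), and that of Cox6a2 with centring (-0.0067). Without 1 array they ran from -0.010 to 0.015, 0.000 to 0.070 and 0.002 to 0.16. The change of Cox8b minus Cox8a was -0.047 without _x_at, _s_at and _a_at probe sets, and without 1 array the partner changes ran from -0.12 to -0.013 for subunit 6A, -0.15 to 0.0033 for 7A (0.0033 without E12.5 A) and 0.008 to 0.46 for 8. The cause of these changes was not tested. The low range limits the report where signal lies under 4: there a change of transcript level may go unseen.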
